A study of Mus musculus with 2 samples.

Results

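The Schlafen genes (Slfn, the symbol used below) are a mammalian gene family that in mice forms a cluster on chromosome 11. By the length of the protein they are sorted into group I (Slfn1 and Slfn2, short), group II (Slfn3 and Slfn4, intermediate) and group III (Slfn5, Slfn8 and Slfn9, long, with a helicase-like part at the end). Several members are known to be induced by type I interferon and by Toll-like receptor ligands in immune cells, Slfn2 is needed for the quiescence of T cells, and Slfn4 is known from cells of the myeloid lineage. Slfnl1 (Schlafen-like 1) carries a related domain and lies on chromosome 4, apart from the cluster. The 8 genes Slfn1, Slfn2, Slfn3, Slfn4, Slfn5, Slfn8, Slfn9 and Slfnl1 were chosen from gene names with the signals of these arrays already known, out of 18193 genes with a probe set of their own, so the values below describe them and no value was tested. Each probe set is a group of short oligonucleotides directed at the same transcript. The platform annotation assigned 13 probe sets to these genes, 12 of them to 1 gene each and 1 to both Slfn3 and Slfn4.

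RNA came from air pouch membranes, the lining that grows around air injected under the dorsal skin, of female BALB/c mice aged 6 to 8 weeks. Membranes injected with 2 mg monosodium urate (MSU) crystals, the crystals that cause gout, in 1 ml PBS were compared with membranes injected with 1 ml PBS alone (control), both taken 9 hours after injection. RNA of 3 mice was pooled per condition and each pool was hybridized to 1 array, so there was no replicate and a difference below can come from a single mouse or array. Each probe set had a linear signal, scaled by the authors to make the arrays comparable.

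A signal was counted as detected above a floor of 74.1 on the MSU array and 64.6 on the control array. A fold (MSU over control) is given where both signals reached their floors, and a bound ("at least") against the other array's floor where only 1 did. Genes with either are called measured, which held for 11155 genes. Where a gene had several probe sets with a fold (4002 genes), their log2 ratios had a median SD of 0.22, which contains no variation between mice. The 18 hybridization spike-in probe sets all had the higher signal on the MSU array (median ratio 1.37), and scaling on them would lower every log2 ratio by 0.46, which also shifts the median of all genes with a fold. The fibroblast markers were above the floor in both pools for 10 of 10 genes and the T cell markers for 2 of 9.

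The bases before the transcription start of 5 cluster genes are shown first, 3 of genes with higher signals in the MSU pool and 2 of genes with near-equal signals, so that their letters can be set beside the values below. The sequences are RefSeq's for the mouse build GRCm38.p6 (strain C57BL/6J, whereas these mice were BALB/c), and each shows the 250 bases before the annotated start, 5′ to 3′ on the gene's strand. Capitals mark matches to the motifs named below. The windows are chr11:83174936-83175185 (plus strand) for Slfn4, chr11:83116570-83116819 (plus) for Slfn1, chr11:83064862-83065111 (plus) for Slfn2, chr11:83020811-83021060 (minus) for Slfn8 and chr11:82991831-82992080 (minus) for Slfn9.
Slfn4: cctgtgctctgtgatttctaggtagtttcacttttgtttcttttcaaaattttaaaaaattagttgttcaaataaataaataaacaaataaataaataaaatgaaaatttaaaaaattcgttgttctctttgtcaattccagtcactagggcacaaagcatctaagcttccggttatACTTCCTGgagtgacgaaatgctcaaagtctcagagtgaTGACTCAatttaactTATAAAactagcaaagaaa
Slfn1: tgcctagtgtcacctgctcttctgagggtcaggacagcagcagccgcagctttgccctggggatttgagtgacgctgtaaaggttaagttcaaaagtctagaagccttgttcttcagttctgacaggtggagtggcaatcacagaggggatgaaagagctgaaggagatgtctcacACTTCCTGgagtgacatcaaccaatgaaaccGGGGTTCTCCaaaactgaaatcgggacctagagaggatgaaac
Slfn2: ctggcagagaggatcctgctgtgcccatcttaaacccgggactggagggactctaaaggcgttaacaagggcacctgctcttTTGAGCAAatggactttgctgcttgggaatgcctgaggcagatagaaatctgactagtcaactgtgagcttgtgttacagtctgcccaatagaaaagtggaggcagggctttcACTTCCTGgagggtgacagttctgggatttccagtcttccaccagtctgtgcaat
Slfn8: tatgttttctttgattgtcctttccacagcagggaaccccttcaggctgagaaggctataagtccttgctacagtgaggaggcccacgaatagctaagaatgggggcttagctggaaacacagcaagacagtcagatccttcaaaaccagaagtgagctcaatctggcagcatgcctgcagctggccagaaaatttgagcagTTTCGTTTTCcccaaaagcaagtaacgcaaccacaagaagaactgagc
Slfn9: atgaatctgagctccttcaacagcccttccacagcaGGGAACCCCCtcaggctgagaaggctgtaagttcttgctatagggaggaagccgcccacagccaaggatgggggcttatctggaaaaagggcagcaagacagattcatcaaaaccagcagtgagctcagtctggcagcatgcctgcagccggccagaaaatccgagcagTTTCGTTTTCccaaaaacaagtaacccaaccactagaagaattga

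The word ACTTCCTG contains the core that ETS transcription factors bind (TTCC, or GGAA on the other strand). Searched on both strands, the whole word was found in the windows of Slfn1, Slfn2, Slfn3 and Slfn4. It was in none of the windows of Slfn5, Slfn8, Slfn9 and Slfnl1, although these windows also hold the core alone. It began 74 bases before the start in Slfn1, 73 in Slfn4 and 55 in Slfn2, and Slfn3 had a match on each strand, at 60 and 42 bases. Of all 32851 RefSeq promoter windows of the same length, 2.69% held it. In Slfn1 and Slfn4 the match was part of a longer shared word, ACTTCCTGGAGTGAC. This word was picked as the longest that these 2 windows share, and the 2 of the 32851 windows that held it are these same ones. The windows of Slfn1 and Slfn4 were 57.1% identical over 219 aligned bases. The interferon-stimulated response element (ISRE, searched as GAAANNGAAA on both strands) had a match in Slfn5, Slfn8 and Slfn9 and in none of the other windows, against 2.98% of all windows. It began 48 bases before the start in Slfn8 and 45 in Slfn9, whose windows were 85.1% identical over 242 aligned bases, and 155 in Slfn5, where the matched letters were GAAAAAGAAA beside a run of A.

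Slfn4 alone also held an AP-1 word (TGANTCA, 6.75% of all windows) beginning 34 bases before the start and a TATA box word (TATAAA, 12.4%) beginning at 19. The Slfn4 window had a GC content of 29.6%, against 48.0% to 52.0% in the other windows. A C/EBP word (TTGCNNAA, 9.56% of all windows) was matched in Slfn2 and Slfn3, and an NF-κB consensus (7.25%) in Slfn1, where its match is GGGGTTCTCC, and in Slfn9. The GAS word of STAT factors (TTCNNNGAA, 7.02%) was matched in none of the 8 windows, and Slfnl1 held none of the 7 motifs. None of the matches overlapped another. The motifs were picked after the signals and the sequences had been seen. The matches do not follow the signals throughout, since the NF-κB consensus was matched in a gene with a higher and a gene with a near-equal signal. Slfn3, with its ETS words, was below both floors on its own probe set, so it has no fold to set beside them. A match is a match of letters and not a binding site.

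**Figure D1:**
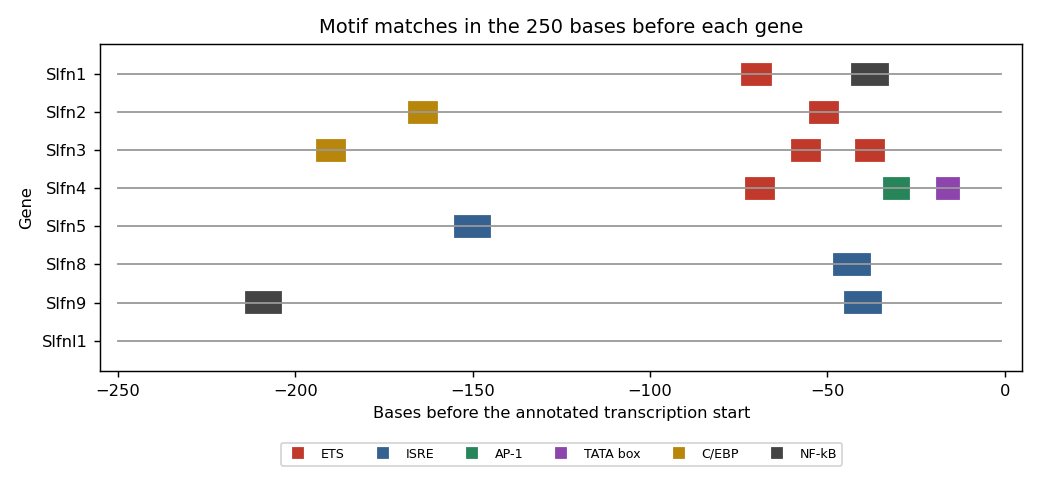
Matches to 6 of the 7 motifs searched (coloured boxes) in the 250 bases before the annotated start of each Schlafen gene (rows), with the distance from the start in bases on the x axis. ETS words (ACTTCCTG) lie in the rows of Slfn1 to Slfn4 and ISRE words in those of Slfn5, Slfn8 and Slfn9, and the row of Slfnl1 is empty.

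Of the 8 genes, 7 were measured, 6 of them above the floor in both pools. Slfn4 and Slfn1 were higher in the MSU pool by at least 2-fold, Slfn2 was higher by less than that, and Slfn5, Slfn8 and Slfn9 had log2 ratios between -0.29 and -0.03. The 2 higher genes of 7 measured stand beside 3.70% of all measured genes at least 2-fold higher, and the 0 lower genes beside 4.29% at least 2-fold lower. Since the genes were chosen with these signals known, nothing is read from that difference. The median log2 ratio was 0.32 over the 6 genes with a fold and -0.05 over all 10045 genes with a fold.

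**Figure D2:**
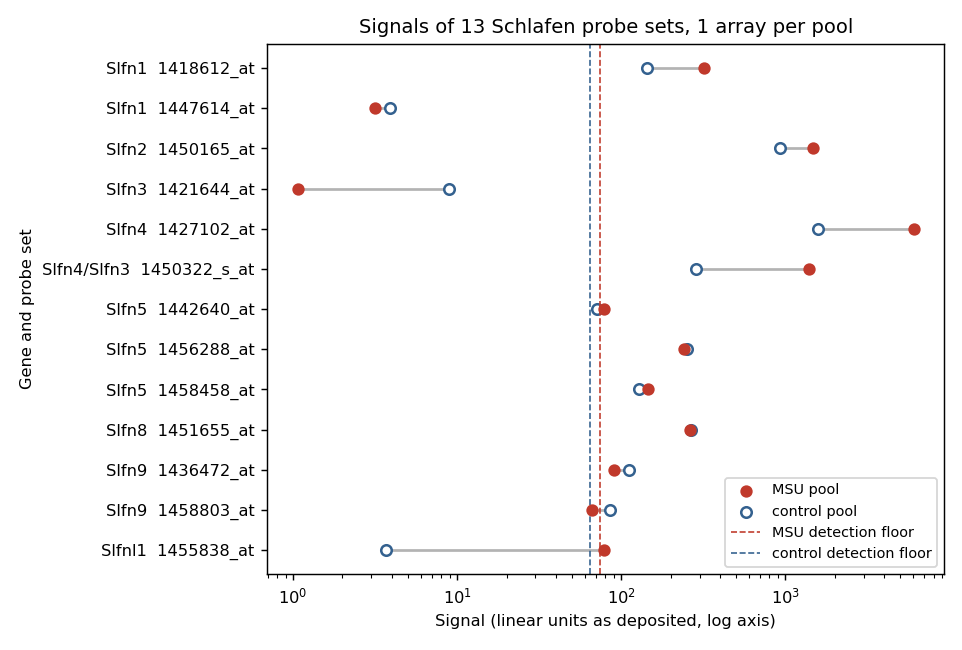
Signal of each of the 13 Schlafen probe sets (rows) in the MSU pool (filled red) and the control pool (open blue) on a log axis, 1 array per pool, with the detection floors of 74.1 and 64.6 as dashed lines. The red point lies clearly to the right of the blue one for Slfn4, Slfn1 (1418612_at only), Slfn2 and the probe set shared by Slfn4 and Slfn3. The points of Slfn5 and Slfn8 nearly coincide. The widest gap is that of Slfnl1 (78.3 against 3.70), whose control signal lies below the floor.

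In group II, Slfn4 had the highest of the 6 folds. Its own probe set (1427102_at) had a signal of 6050 in the MSU pool and 1574 in the control pool, which is 3.84-fold higher with a log2 ratio of 1.94. Only 65 of the 10045 genes with a fold had a higher one. Genes with only a bound were not ranked, and some were above the fold of Slfn4, such as Cxcr2 (at least 7.07-fold higher). The probe set that the annotation assigns to both Slfn4 and Slfn3 (1450322_s_at) had signals of 1384 in the MSU pool and 286 in the control pool, or 4.85-fold higher. Both probe sets thus differed between the pools in the same direction, with log2 ratios 0.33 apart, and the shared one cannot be divided between its genes. Slfn3 on its own (1421644_at) had signals of 1.07 in the MSU pool and 8.89 in the control pool, below both floors, so it has no fold.

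Slfn4 was nearest, by the distance between log2 signals over the 2 arrays, to Socs3, Sod2, Serpinb2, Il33 and Ier3. The feedback inhibitor of cytokine signalling Socs3 had signals of 5373 in the MSU pool and 1462 in the control pool (log2 ratio 1.88), and the mitochondrial superoxide dismutase Sod2 5053 and 1512 (1.74). The other three, the protease inhibitor Serpinb2, the alarmin Il33 and the early response gene Ier3, had log2 ratios of 2.34, 1.92 and 1.49. With 2 arrays this likeness is coarse and says only that the signals were alike.

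In group I, both genes had higher signals in the MSU pool. Slfn1, the founding member and a regulator of thymocyte growth, had a signal of 319 in the MSU pool and 144 in the control pool on its probe set above the floor (1418612_at), which is 2.22-fold higher (log2 ratio 1.15), a ratio that 273 genes with a fold exceeded. This lies just above the 2-fold size, and under scaling on the spike-ins the log2 ratio was 0.69 and with each floor added as a pseudocount 0.91, both above 0 but under 2-fold. The other Slfn1 probe set (1447614_at) had signals of 3.14 in the MSU pool and 3.90 in the control pool, below both floors, so the fold of Slfn1 rests on 1 probe set. Slfn2 (1450165_at) had a signal of 1474 in the MSU pool and 927 in the control pool, which is 1.59-fold higher (log2 ratio 0.67, and 0.21 under scaling on the spike-ins). It was exceeded by 669 genes with a fold and was not at least 2-fold higher.

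In group III, none of the genes was at least 2-fold higher or lower. Slfn5, a long member known to respond to interferon, had 3 probe sets above both floors. Their signals were 240 in the MSU pool and 253 in the control pool (1456288_at), 145 and 128 (1458458_at), and 78.4 and 71.2 (1442640_at). The log2 ratios of -0.08, 0.18 and 0.14 had an SD of 0.14 and lay on both sides of 0. Slfn8 (1451655_at) had a signal of 261 in the MSU pool and 266 in the control pool, a log2 ratio of -0.03. For Slfn9 the brighter probe set (1436472_at) had 90.8 in the MSU pool and 111 in the control pool, a log2 ratio of -0.29. Its other probe set (1458803_at) had 66.7 in the MSU pool, below the floor, and 85.5 in the control pool, a bound of at least 1.15-fold lower. Slfn9, the lowest of the 6 genes with a fold, was nearest in signal to Pi15, Ttll5, Dhx58, Ccp110 and Emcn, at distances of at most 0.03 on the log2 scale.

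Slfnl1 (1455838_at) had a signal of 78.3 in the MSU pool and 3.70 in the control pool. The plain ratio of these signals is 21.2, but the MSU signal lay just above its floor of 74.1 and the control signal below the control floor, so only a bound of at least 1.21-fold higher can be given. With the floor set at the 15000th signal of each array, or with scaling on the spike-ins, Slfnl1 was no longer measured.

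Along chromosome 11, the cluster genes with near-equal signals stood next to each other, and so did those with higher signals. In the order of the annotation, Slfn5, Slfn9 and Slfn8 had log2 ratios of -0.08, -0.29 and -0.03, followed by Slfn2 with 0.67, Slfn1 with 1.15 and Slfn4 with 1.94. Slfn3, the next gene, was below both floors, and Slfn14 had no probe set of its own. Of the 10 protein-coding genes on each side, 17 had a probe set of their own, 10 were measured. Among these, 2 reached 2-fold higher and 0 reached 2-fold lower, beside 3.70% and 4.29% of all measured genes. The protein-coding gene directly before Slfn5, the muscle myosin chaperone Unc45b, had signals of 108 in the MSU pool and 173 in the control pool (log2 ratio -0.68). On the other side, the clathrin adaptor subunit Ap2b1 had 716 in the MSU pool and 761 in the control pool (-0.09). The 2 higher neighbours were the ubiquitin ligase Rffl, with 282 in the MSU pool and 89.3 in the control pool (3.16-fold higher), and the chemokine Ccl5, with 244 in the MSU pool and 62.4, below the floor, in the control pool (at least 3.78-fold higher). The median log2 ratio of the 7 neighbours with a fold was 0.26.

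**Figure D3:**
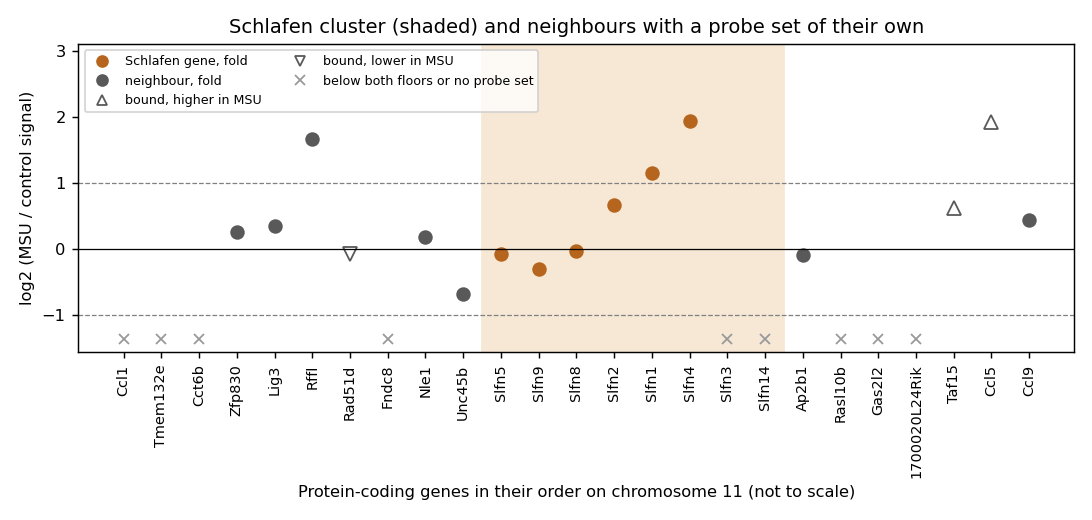
Log2 of MSU over control signal (y axis) for the Schlafen cluster (shaded, brown points) and the 17 neighbouring protein-coding genes with a probe set of their own, in their order on chromosome 11 (x axis, not to scale), 1 array per pool. The brown points stay near 0 for Slfn5, Slfn9 and Slfn8 and reach 0.67, 1.15 and 1.94 for Slfn2, Slfn1 and Slfn4, and dashed lines mark 2-fold.

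Type I interferon acts through the receptor made of Ifnar1 and Ifnar2 and switches on a set of interferon-stimulated genes. Of 28 such genes listed, 24 were measured. At the 2-fold size 0 were higher and 5 lower, beside 3.70% and 4.29% of all measured genes, with a median log2 ratio of -0.41 over 23 folds. The 5 were the RNA-binding antiviral genes Ifit1, Ifit2 and Ifit3, the ISG15 protease Usp18 and the chemokine Cxcl10. Ifit3 had a signal of 148 in the MSU pool and 523 in the control pool, 3.54-fold lower, and Cxcl10 154 in the MSU pool and 398 in the control pool, 2.59-fold lower. The antiviral enzymes Oas1a and Rsad2 had log2 ratios of -0.16 and -0.77, and Eif2ak2, the double-stranded RNA-activated kinase, had the highest of the list at 0.45. Ifnb1 and Ifng, which encode interferons, were below the floor in both pools, and the receptor chains Ifnar1 and Ifnar2 had log2 ratios of 0.84 and 0.18. The log2 ratios of this list ran from -1.82 (Ifit3) to 0.45. Those of Slfn5, Slfn8 and Slfn9 were within this range, and also within the interquartile range of all genes with a fold (-0.36 to 0.23). Those of Slfn2, Slfn1 and Slfn4 were above the range of the list. Whether interferon acted on the Schlafen genes was not tested.

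Genes that NF-κB switches on, including its own inhibitors, were higher in the MSU pool. Of 11 measured, 9 were higher and 0 lower by at least 2-fold, beside 3.70% and 4.29% of all measured genes. Their median log2 ratio was 1.60 over 9 folds. The ubiquitin-editing enzyme Tnfaip3 had a signal of 2023 in the MSU pool and 331 in the control pool, 6.12-fold higher, and the inhibitor Nfkbia 12296 in the MSU pool and 4933 in the control pool, 2.49-fold higher. The ratio of Slfn4 lay between these values, and whether NF-κB acted on the Schlafen genes was not tested.

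Markers of neutrophils moved in the same direction as Slfn4, Slfn1 and Slfn2. Of 14 with a probe set of their own, 13 were measured and 12 were at least 2-fold higher. The summed signal of the 14 was 27787 in the MSU pool and 3669 in the control pool. Of these sums S100a8 gave 8677 and 817, and S100a9 gave 8737 and 724. Beside these 12 genes and the counts that follow, 3.70% of all measured genes were at least 2-fold higher and 4.29% lower. Camp was below both floors, and Ltf had a log2 ratio of -0.54. The granulocyte growth factor receptor Csf3r, with 989 in the MSU pool and 257 in the control pool, was 3.85-fold higher, close to the fold of Slfn4, the calgranulin S100a9 was 12.1-fold higher, and the stefin Stfa2l1 had the highest fold of the list at 13.6. Of 6 monocyte markers measured, 2 were at least 2-fold higher (Chil3 and F10), and the summed signal was 16156 in the MSU pool and 12565 in the control pool, most of it from fibronectin (Fn1, 10057 and 8391), which fibroblasts also express. Of 13 resident macrophage markers measured, 0 were higher and 2 lower by at least 2-fold (Folr2 and Trem2), and the summed signal was 30436 in the MSU pool and 31328 in the control pool. Under that size the markers went both ways, with Cd163 1.94-fold and Mrc1 1.78-fold higher and Cd68 1.72-fold and C1qa 1.41-fold lower. The T cell genes Cd3d, Cd3e, Cd3g and Cd4 were below the floor in both pools, and the 9 T cell markers summed to 551 in the MSU pool and 630 in the control pool, of which Zap70 gave 386 and 426. Markers of fat and muscle had lower summed signals in the MSU pool. Of 5 adipocyte markers measured, 4 were lower by at least 2-fold and 0 higher, with summed signals of 2197 in the MSU pool and 8987 in the control pool, and adiponectin (Adipoq) was 7.36-fold lower. Of 8 skeletal muscle markers measured, 2 were lower by this size and 0 higher, with sums of 24616 in the MSU pool and 33781 in the control pool, and troponin T3 (Tnnt3) was 4.99-fold lower. The part of these cells and tissues in the Schlafen and interferon-stimulated gene signals was not tested, and in whole membranes more cells of a type and more RNA per cell cannot be told apart.

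**Figure D4:**
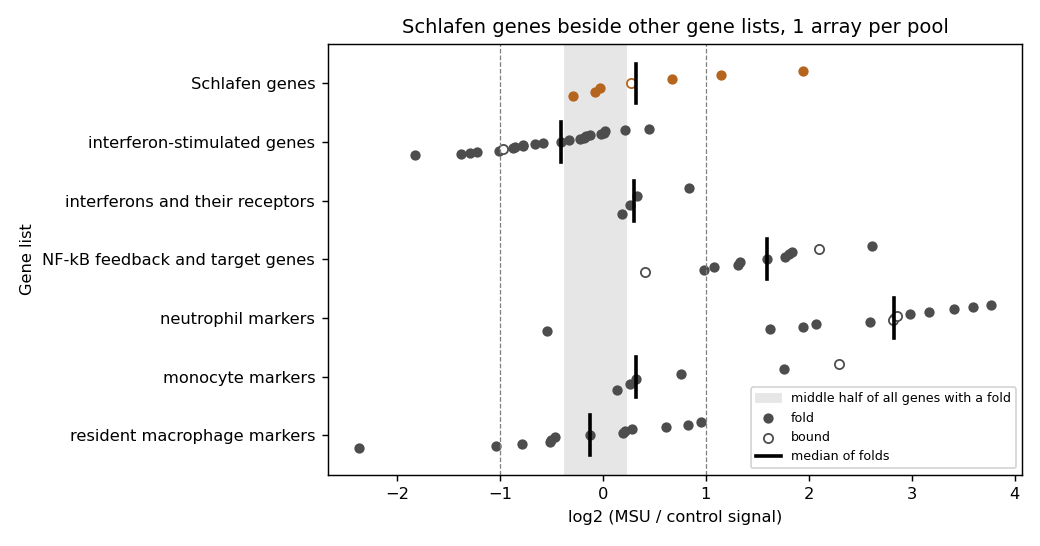
Ratio of MSU to control signal on a log2 scale (x axis) of each measured gene in 7 lists (rows), from 1 array per pool. Filled points stand for folds, open ones for bounds, black bars medians of the folds, dashed lines 2-fold, and the grey band the interquartile range of all genes with a fold (-0.36 to 0.23), and the Schlafen genes reach from that band up to 1.94.

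Among the 6 genes with a fold, Slfn4 had the highest log2 ratio under the 9 settings tried (1.49 to 1.94), followed by Slfn1 (0.69 to 1.17) and Slfn2 (0.21 to 0.67). Of the 8 settings besides the deposited values, 4 left these 3 ratios as they were and 2 moved them by the same amount, so those 6 could not change their order. Slfnl1, which has only a bound, had a log2 ratio of 4.40 with no floor, above that of Slfn4, and of 1.16 with each floor added as a pseudocount, above that of Slfn1. The log2 ratios of Slfn5 and Slfn8 ran from -0.53 to 0.14 and from -0.48 to 0.02, changing sign within these ranges, and that of Slfn9 from -0.75 to -0.09 under the 8 settings that gave a value.

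**Figure D5:**
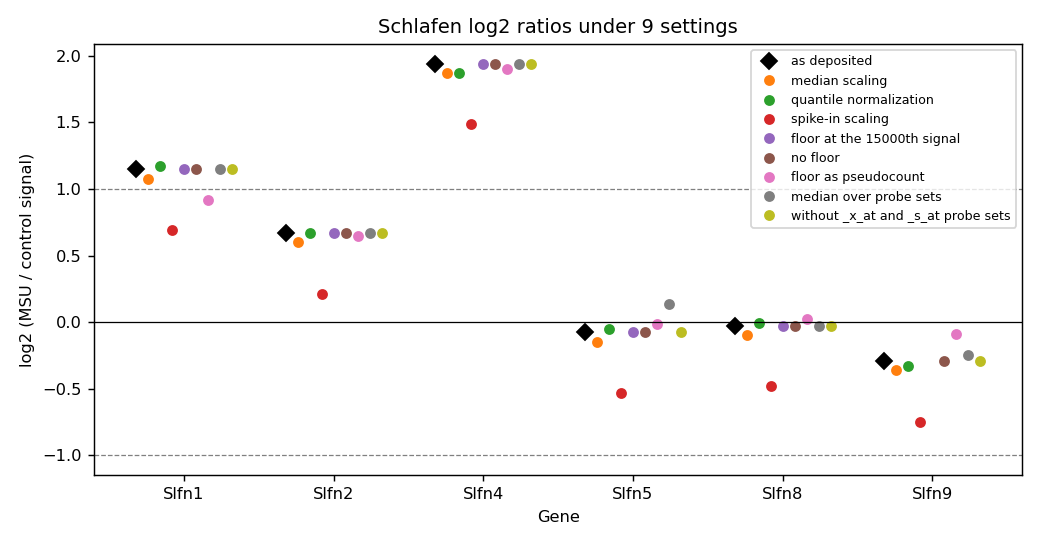
Log2 of MSU over control signal (y axis) of the 6 Schlafen genes with a fold (x axis) as deposited (black diamonds) and under 8 other settings (coloured points), with 2-fold as dashed lines. Slfn4 stays above 1 in all of them, Slfn1 falls below 1 in 2, and scaling on the spike-ins gives the lowest value for each gene.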

How the data were processed

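Membrane RNA was measured as linear intensities of probe sets, which were deposited as the authors had obtained them with Affymetrix software (the submitters' processing notes name MAS5, with a version not given in the sources used here) from 1 Mo430_2 array per condition, each with the pooled RNA of 3 mice. These intensities were used as deposited. Of 45101 probe sets, 64 were array controls. Gene names came from the platform annotation, with 1 gene for 34958 probe sets, several for 932 and none listed for 9211, and symbols were updated by gene identifier through RefSeq (GRCm38.p6), in which 34741 of 34945 such probe sets matched. For a gene with several probe sets, the one whose log2 signals had the highest mean was used.

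Each array's floor was set so that the number of probe sets above it equalled the number that the study counted as detected there. A log2 ratio is log2 of MSU over control. With 1 array per condition no test was made, and the number of arrays limits the precision. Gene lists and members were chosen with earlier results of these data known. Named are all members, list genes with the highest MSU signal or the largest ratio, the genes at the edges of the cluster and the 5 nearest in signal to the highest and lowest member. Further genes, among them Ltf, Camp, Csf3r, Cxcr2, Eif2ak2, Rsad2, Chil3, F10, Cd163, Cd68, C1qa, Zap70, the interferon and receptor genes, the T cell genes below the floor, the genes behind counts of 5 or fewer and both higher neighbours, were named after their values were seen. RefSeq promoter windows were found for all 8 genes (the first of 2 for Slfn8), cut to the 250 bases before the start and searched on both strands. The gene step was tested on simulated data. Computations used Python 3.11.15, numpy 2.4.6 and pandas 2.3.3.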

Additional observations from a re-analysis of the deposited data

How the results depend on the processing

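Scaling on the hybridization spike-ins moved the median log2 ratio of all genes with a fold to -0.51, left 1 Schlafen gene (Slfn4) at least 2-fold higher in place of 2, and gave medians of -0.13 for the Schlafen genes, -0.86 for the interferon-stimulated genes and -0.19 for the neighbouring genes. Relative to that median, the members kept their order, since each log2 ratio moved by the same amount. The share of higher genes among all genes at least 2-fold higher or lower was 10.1% there, in place of 46.4%. Of the 11282 genes measured with this scaling, 1.77% were at least 2-fold higher and 15.8% lower. With the floor at the 15000th signal, 5 Schlafen genes were measured and their median was 0.67, since Slfn9 and Slfnl1 dropped out. With no floor, 1 Schlafen gene was at least 2-fold lower, Slfn3, at signals below both floors (log2 ratio -3.06), and Slfnl1 was counted as higher (4.40). Of all 18193 genes, 8.92% were then at least 2-fold higher and 9.48% lower. With each floor added as a pseudocount the log2 ratio of Slfn1 was 0.91. With a size of 3-fold 1 Schlafen gene was higher, beside 1.47% of all measured genes. All genes at least 2-fold higher numbered 413, and 1623 with no floor, 965 at a size of 1.5-fold, 164 at 3-fold and 200 with spike-in scaling. Those at least 2-fold lower numbered 478, and 1724, 1605, 80 and 1787 under these settings, and 217 with the pseudocount. The counts are of 11155 measured genes as deposited and at the other sizes. They are of 18193 genes with no floor or the pseudocount, and of 11282 with spike-in scaling. No paired analysis was possible because there was 1 array per condition.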

Other observations

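Outside the 8 genes, the pseudogene Slfn10-ps had a signal of 65.0 in the MSU pool and 25.3 in the control pool, and the antisense transcript Slfn5os 2.61 in the MSU pool and 4.65 in the control pool. Both were below the floors, so no fold is given for either.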
